A study of Homo sapiens with 9 samples.

Results

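Lysosomal gene expression was examined in HMEC-1, an established human dermal microvascular endothelial cell line, with and without exposure to trimethylamine N-oxide (TMAO), a metabolite made from dietary precursors by gut bacteria and the liver. The genes described are 36 of the 29740 in the deposited count table: soluble hydrolases of the lysosome and their cofactors, membrane proteins, a channel and the transcription factor TFEB. They were selected by symbol for their lysosomal function, except that IDUA was chosen by its fall at 24H in these same libraries, and the question was whether other lysosomal genes followed it. The IDUA values are therefore given as a description with no test, and counts of genes that changed are over the other 35. Bulk RNA-seq was available for 3 groups of 3 libraries. These were untreated cells (CTRL), cells given 50 µM TMAO for 24H, and cells given the same dose for 48H. All 3 groups were of the same line and differed, by their labels, in treatment and its duration. The controls of both time-points form 1 group, so their time in culture is not given and both comparisons with CTRL share the same 3 control libraries. Per the study's methods, cells were kept in serum-starved medium during TMAO treatment. The duration of exposure therefore cannot be told apart from time in that culture. The labels do not say whether the libraries of a group came from separate cultures, and the study's methods speak of independent experiments in general without naming the RNA-seq libraries. The p-values measure the spread between these libraries, which may be technical.

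The lysosome is an acidic organelle in which hydrolases break down material delivered by endocytosis and autophagy. Most soluble hydrolases are tagged with mannose 6-phosphate in the Golgi and sorted to the organelle, where highly glycosylated membrane proteins such as LAMP1 and LAMP2 line the limiting membrane. Loss of a single hydrolase stores its substrate: IDUA, α-L-iduronidase, removes terminal iduronic acid from heparan and dermatan sulfate, and its deficiency causes mucopolysaccharidosis type I. TFEB binds a short palindromic element in the promoters of many lysosomal genes and raises their transcription when it enters the nucleus. Endothelial cells use the pathway to turn over their glycosaminoglycan-rich surface coat and the matrix below it.

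Library totals ranged from 25205756 to 36927373 estimated counts. The TMAO 24H library of replicate 1 stood apart by its ribosomal RNA, which took 31.5% of its counts against 1.64% to 7.46% in the other 8. After a filter on low counts 14740 genes remained, among them all 36 lysosomal genes. The endothelial markers PECAM1, CDH5, KDR, TIE1 and 6 others were detected in all libraries, although CLDN5 was near 1.5 CPM (counts scaled to an equal library size). Their summed level was 2310 to 2645 CPM in CTRL, 2357 to 2496 at 24H and 2056 to 2246 at 48H. The 6 leukocyte markers summed to 19.5 to 22.3, 21.4 to 22.9 and 22.2 to 23.6 CPM, nearly all of it CD68, and PTPRC was at 0 in 5 libraries. The 6 fibroblast or mural markers summed to 674 to 770 CPM in CTRL, 672 to 721 at 24H and 451 to 498 at 48H, mostly COL1A1, with DCN and LUM at 0 in 8 libraries each. The 4 epithelial markers summed to 62.0 to 100.2 CPM in CTRL, 55.6 to 69.6 at 24H and 8.74 to 96.6 at 48H. The part of these shifts in the results below was not tested, and less RNA per cell cannot be told apart from fewer cells of a kind in bulk samples.

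In untreated HMEC-1 the lysosomal genes spanned more than 2 orders of magnitude in level per length of transcript. Levels between genes are given as CPM per kb of the principal isoform, mean ± SD of 3 CTRL libraries. PSAP, whose product is cut into the saposins that assist sphingolipid hydrolases, was highest at 361.1 ± 18.4. CTSZ, a carboxypeptidase, followed at 168.8 ± 4.19, the cysteine protease CTSB at 151.2 ± 8.05, LAMP1 at 147.6 ± 7.17 and the aspartic protease CTSD at 113.1 ± 3.91. CTSB and LAMP1 did not differ beyond their spread, whereas PSAP stood apart from CTSZ by many SDs. Among the glycosaminoglycan enzymes the β-glucuronidase GUSB led at 34.3 ± 1.58, ahead of the hyaluronidase-family protein HYAL2 at 30.2 ± 1.28. GUSB has near-identical pseudogene copies, so its count is uncertain. The β-galactosidase GLB1 led the glycan hydrolases at 29.5 ± 2.24. Lowest were the β-mannosidase MANBA at 3.01 ± 0.323, TFEB at 3.36 ± 0.148, the fucosidase FUCA1 at 3.56 ± 0.263 and IDUA at 4.15 ± 0.133. The order depends on the length used: with the median length of coding transcripts in place of the principal isoform, CTSB ranked 1 at 1022 CPM per kb and HYAL2 ranked 4 at 164.5.

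**Figure D1:**
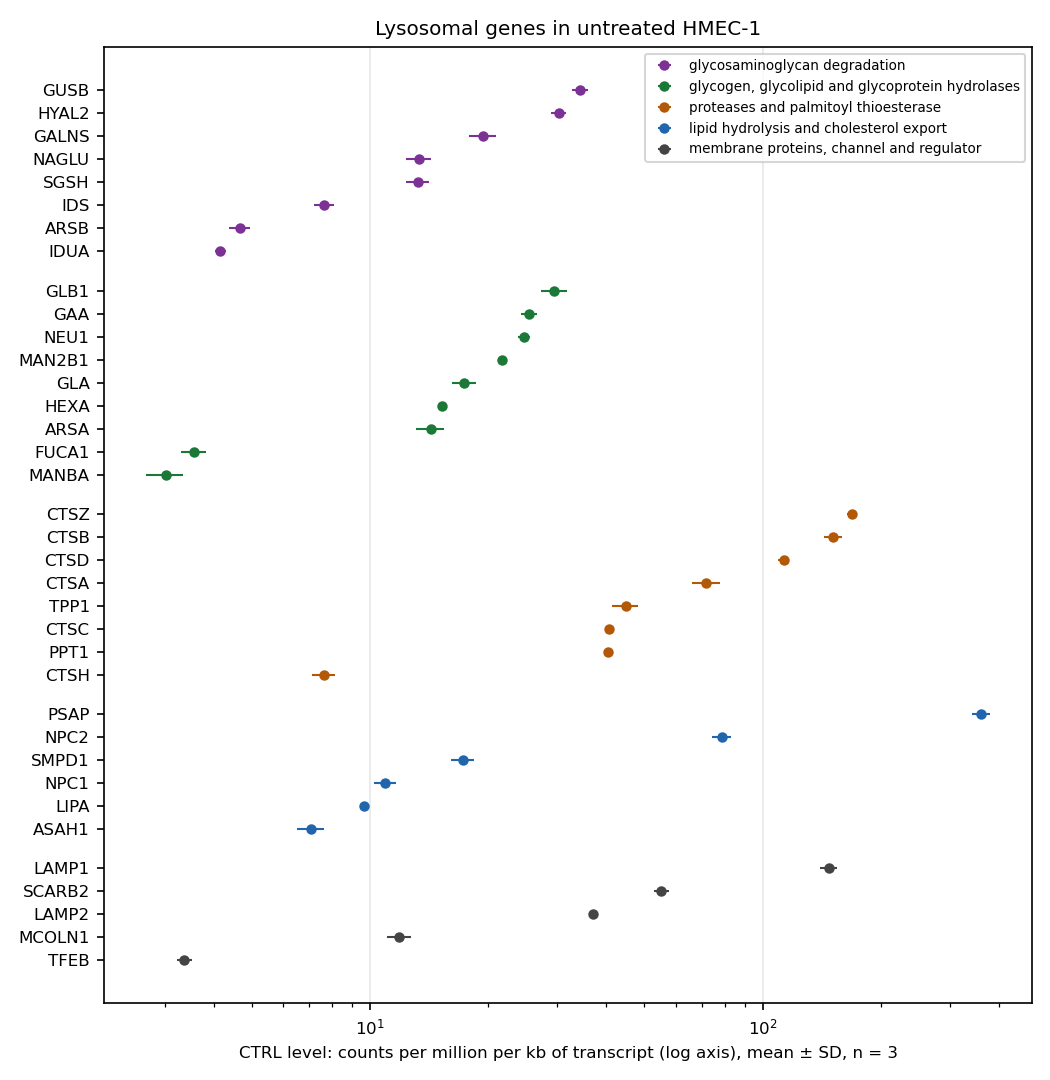
Level of each lysosomal gene in untreated HMEC-1, in CPM per kb of the principal isoform (horizontal log axis; points are means and bars SDs of 3 CTRL libraries), coloured by role. PSAP at 361.1 is highest and MANBA at 3.01 lowest, and all genes of the protease group except CTSH lie above the highest glycan hydrolase, GLB1.

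The element that TFEB binds was sought in RefSeq promoters (GRCh38.p14, 250 bases before to 50 after each start) as TCACGTGA, a palindrome that reads the same on both strands and contains the core CACGTG. Of the 36 genes 27 had a promoter entry. The core was in 8 of the 27 (29.6%) against 2396 of 27305 genes (8.78%), and the longer form in 5 (18.5%) against 321 (1.18%). The 5 were CTSA, GAA, GALNS, LAMP1 and MCOLN1, the last a calcium channel of the lysosomal membrane, and neither of the IDUA promoters listed held either form. Stretches holding the longer form are shown because these are the genes whose promoters carry the element most fully. They lie at chr20:45891279-45891344 (forward strand), chr17:80101474-80101586 (forward strand), chr16:88857085-88857152 (reverse strand), chr13:113297180-113297248 (forward strand) and chr19:7522552-7522633 (forward strand), in the order CTSA, GAA, GALNS, LAMP1 and MCOLN1. Each is written 5′ to 3′ on the strand of its gene, and capitals mark TCACGTGA.
CTSA: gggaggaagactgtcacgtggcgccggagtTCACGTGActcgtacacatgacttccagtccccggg
GAA: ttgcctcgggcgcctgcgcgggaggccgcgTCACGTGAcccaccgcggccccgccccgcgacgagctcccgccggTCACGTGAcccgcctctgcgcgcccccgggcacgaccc
GALNS: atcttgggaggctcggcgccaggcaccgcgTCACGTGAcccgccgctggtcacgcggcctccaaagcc
LAMP1: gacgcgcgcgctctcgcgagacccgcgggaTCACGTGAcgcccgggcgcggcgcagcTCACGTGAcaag
MCOLN1: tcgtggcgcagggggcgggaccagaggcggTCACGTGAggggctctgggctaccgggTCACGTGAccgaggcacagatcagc
A match of letters is a description and not a site in use. The 5 genes had log2 fold changes at 48H of -0.20 (CTSA), -0.02 (GAA), -0.05 (GALNS), -0.21 (LAMP1) and -0.14 (MCOLN1), of which LAMP1 alone passed the test described next.

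IDUA was lower in every TMAO library than in every CTRL library. In normalised counts (scaled to the mean effective library size) the CTRL libraries held 262.8, 278.8 and 277.1, those at 24H 161.3, 168.7 and 205.9, and those at 48H 172.3, 222.8 and 197.9. The highest treated value, in the 48H library of replicate 2, stayed below the lowest control. The means were 272.9 ± 8.74, 178.6 ± 23.9 and 197.7 ± 25.3 (SD, n = 3). The log2 fold changes were -0.61 at 24H and -0.46 at 48H, or 0.655 and 0.725 times the control level. IDUA was chosen by its 24H fall against these controls, which the 48H value shares, so the separation adds no support. Without the 24H library of high ribosomal RNA content the 24H value was -0.54. SLC26A1, a sulfate transporter gene on the opposite strand, shares 534 exon bases with IDUA, 13.35% of the IDUA exons. Whether the counting used strand is not given in the sources used here, so reads in the shared bases cannot be told apart. SLC26A1 had a log2 fold change of -0.06 at 24H and -0.18 at 48H (adjusted p = 0.436 by edgeR's quasi-likelihood test at 48H).

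At 24H no other lysosomal gene passed the test. The test was edgeR's quasi-likelihood test with Benjamini-Hochberg adjustment over all 14740 genes, and a gene passed at an adjusted p under 0.05. Among all genes 0% passed as higher and 0.095% (14 genes) as lower, so the background at 24H was itself near 0. At an unadjusted p under 0.05 by the same test, 0 of the 35 genes were higher and 3 of the 35 lower. Among all genes 408 (2.77%) were higher and 659 (4.47%) lower. DESeq2 also called 0 of the 35. With the study's 1.4-fold minimum added, 0 of the 35 and 0.0475% of all genes were called. The median log2 fold change of the 35 was -0.02 with 14 above and 21 below 0, against a median over all tested genes of -0.00042. The extremes were NAGLU, a heparan sulfate glucosaminidase, at -0.20 (SE 0.08) with adjusted p = 0.665 by edgeR's quasi-likelihood test, and FUCA1 at 0.11 (SE 0.10) with adjusted p = 0.902. HEXA and LIPA were higher in all 3 libraries at 24H than in any CTRL library, 5.71% of the 35 against 6.73% of all genes. CTSZ, LAMP1, NAGLU and the sialidase NEU1 were lower without overlap, 11.4% against 7.52%. An exact permutation test of 3 against 3 libraries cannot go below p = 0.1.

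At 48H, 6 of the 35 fell and 1 rose, by small amounts. CTSB, CTSC, CTSD, CTSZ, HYAL2 and LAMP1 were lower (17.1%) and PPT1 was higher (2.86%), where 5.29% of all genes passed as lower and 5.14% as higher. None of the 7 reached 1.4-fold, which 1.8% of all genes did. Whether so small a change passes depends on the count and on the spread between libraries. LAMP1, with a CTRL mean of 12117 normalised counts, passed at -0.21 (SE 0.04). TFEB, with a CTRL mean of 240, did not pass at -0.20 (SE 0.11). CTSA, with 4698, did not pass at -0.20 (SE 0.06), while CTSC, with 2374, passed at -0.14 (SE 0.04). The shares over all genes were not matched for count level. The median log2 fold change of the 35 was -0.02, with 13 above and 22 below 0, against 0.0040 over all tested genes. Groups did not overlap for 7 genes lower (20%, background 13%) and 6 higher (17.1%, background 14.7%). The 7 lower were the 6 that passed and TFEB, and the 6 higher were PPT1, ARSB, HEXA, IDS, LAMP2 and MANBA.

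**Figure D2:**
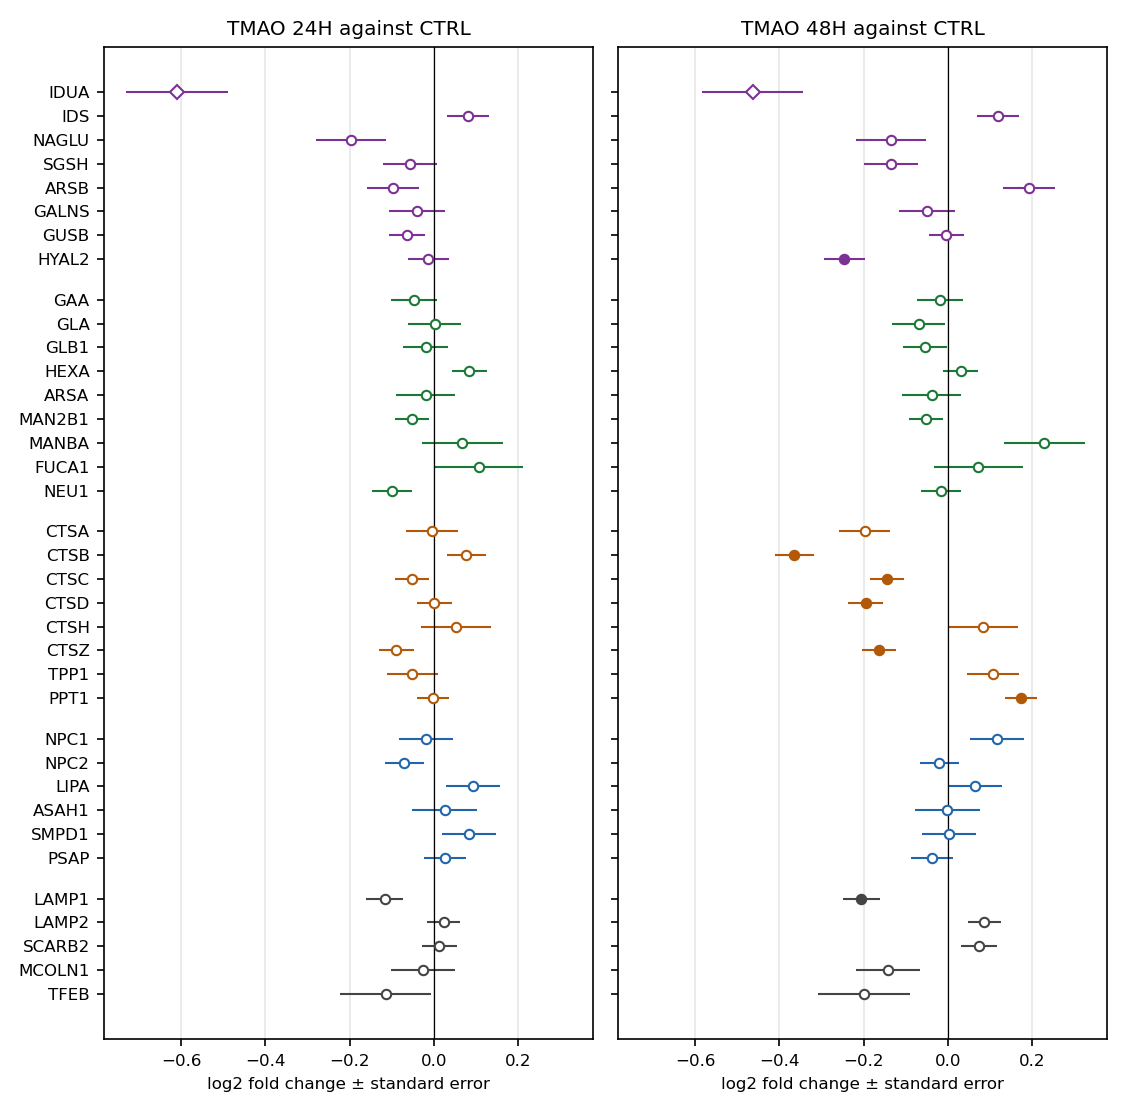
Log2 fold change (horizontal axis, bars are standard errors) of the 36 lysosomal genes at 24H and 48H against CTRL, coloured by role from glycosaminoglycan enzymes at the top to membrane proteins and TFEB at the bottom. Filled points passed at an adjusted p under 0.05. The open diamond is IDUA, which was not tested, so its bar is a description only. No point is filled at 24H, and at 48H CTSB lies farthest left of the 35 at -0.36.

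The proteases held most of the genes that changed. Of the 8 genes in this group (7 proteases and the thioesterase PPT1) 4 fell (50%) and 1 rose (12.5%). Among all genes 5.29% passed as lower and 5.14% as higher, shares not matched for count level. The 4 had CTRL means of 17819 (CTSB), 7674 (CTSZ), 7303 (CTSD) and 2374 (CTSC) normalised counts, and the part of count level was not tested. The group median was -0.15 on the log2 scale. CTSB, the cysteine protease cathepsin B, moved most. Its normalised counts were 18162, 18548 and 16746 in CTRL, 18456, 18796 and 19162 at 24H and 13854, 13648 and 14011 at 48H. The 48H libraries lay below all 6 others and within a narrow band. CTSB fell at 48H by 0.36 on the log2 scale (SE 0.05, adjusted p = 0.000388, edgeR's quasi-likelihood test), to 0.777 times the control. Against 24H it fell by 0.44 (SE 0.05, adjusted p = 5.68e-05, same test).

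CTSD, the aspartic protease cathepsin D, had 7322, 7545 and 7042 normalised counts in CTRL, 7118, 7208 and 7606 at 24H and 6384, 6264 and 6489 at 48H. The first 6 values overlapped and the last 3 lay below them. CTSD fell by 0.20 at 48H (SE 0.04, adjusted p = 0.0101, edgeR's quasi-likelihood test), and missed the threshold without CTRL replicate 2 or the 48H library of replicate 2, at an adjusted p of up to 0.0537. AC068580.4 shares 41.71% of the CTSD exon bases on the same strand and was not analysed here. For CTSZ the normalised counts were 7516, 7886 and 7621 in CTRL, 7043, 7134 and 7469 at 24H and 7066, 6865 and 6623 at 48H. Its treated libraries lay below every control at both times, and the fall passed at 48H with a log2 fold change of -0.16 (SE 0.04) and adjusted p = 0.0231 by edgeR's quasi-likelihood test. Leaving out CTRL replicate 2 or the 48H libraries of replicate 2 or 3 ended it, with an adjusted p of up to 0.0987. CTSC, a dipeptidyl peptidase that activates serine proteases of immune cells, had 2359, 2433 and 2330 in CTRL, 2349, 2249 and 2279 at 24H and 2199, 2096 and 2154 at 48H. The 48H values were the 3 lowest, and the log2 fold change was -0.14 (SE 0.04) with adjusted p = 0.0399 by edgeR's quasi-likelihood test, the closest to the threshold. Leaving out any 1 of 7 of the 9 libraries ended this call, with an adjusted p of up to 0.146.

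PPT1, which removes palmitate from proteins, was the single gene of the 35 to rise. Its normalised counts were 5021, 4968 and 4783 in CTRL, 5003, 4849 and 4909 at 24H and 5606, 5663 and 5397 at 48H. The 48H libraries were above all others, by a log2 fold change of 0.17 (SE 0.04) with adjusted p = 0.0116 (edgeR's quasi-likelihood test). CAP1 overlaps 23.4% of the PPT1 exons on the opposite strand and had a log2 fold change of 0.01. Without the 48H library of replicate 2 the PPT1 call was lost at an adjusted p of 0.0598 by edgeR's quasi-likelihood test. CTSA, which protects GLB1 and NEU1, had a log2 fold change of -0.20 (SE 0.06) with adjusted p = 0.0578 by edgeR's quasi-likelihood test, and passed with DESeq2 at 0.0193. It also passed with at least 10 counts in every library and with ribosomal RNA genes left out. Leaving out CTRL replicate 3 or the 48H library of replicate 3 had the same outcome, and in the other settings CTSA did not pass. NEURL2 and PLTP share 17.73% and 3.42% of its exon bases on the opposite strand. TPP1 and CTSH had 0.11 and 0.08 and did not pass.

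**Figure D3:**
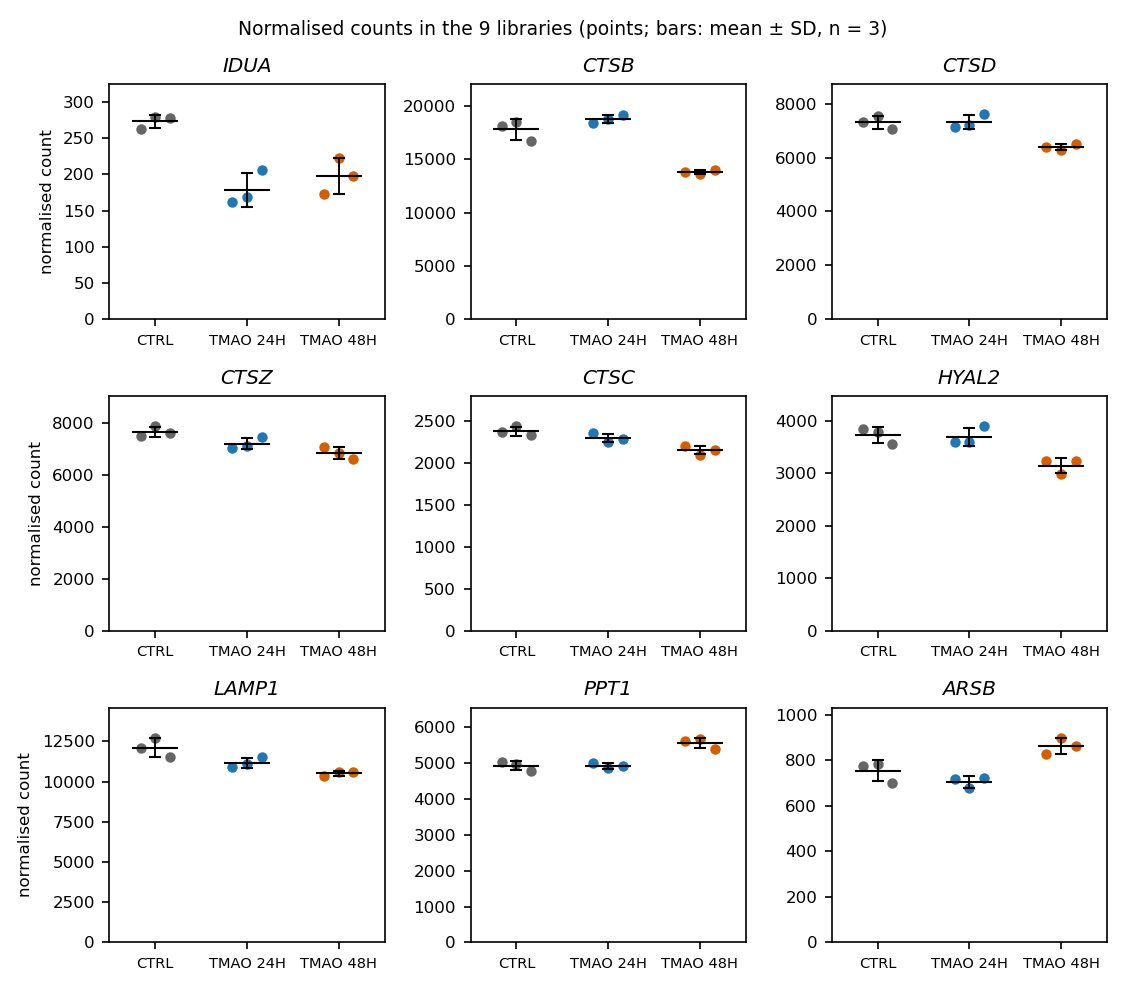
Normalised counts (vertical axes from 0) of IDUA, the 7 genes that passed at 48H and ARSB in the 9 libraries, as points for CTRL, TMAO 24H and TMAO 48H with the mean and SD of 3. IDUA is already lower at 24H, whereas CTSB, CTSD, HYAL2 and PPT1 differ from CTRL in the 48H libraries alone.

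The glycosaminoglycan enzymes, the group of IDUA, held 1 further gene that fell. HYAL2, a membrane-anchored hyaluronidase-family protein, had normalised counts of 3847, 3789 and 3549 in CTRL, 3590, 3603 and 3893 at 24H and 3223, 2988 and 3224 at 48H. The 48H libraries lay below the other 6, which overlapped. It fell by 0.25 on the log2 scale (SE 0.05, adjusted p = 0.00696, edgeR's quasi-likelihood test). TUSC2 shares 11.2% of the HYAL2 exon bases on the same strand and had a log2 fold change of -0.20 with adjusted p = 0.0698 by the same test. ARSB, arylsulfatase B, had 776.8, 783.5 and 702.2 in CTRL, 715.9, 676.7 and 722.5 at 24H and 827.6, 897.4 and 861.9 at 48H. ARSB did not pass against CTRL at 48H (log2 fold change 0.19 (SE 0.06), adjusted p = 0.0638, edgeR's quasi-likelihood test). The enzymes that act on heparan sulfate beside IDUA had log2 fold changes at 48H of 0.12 (IDS, iduronate sulfatase), -0.13 (NAGLU) and -0.13 (SGSH, a sulfamidase), and none passed. GALNS was at -0.05. GUSB, the highest of the group in level, had 2373, 2524 and 2308 normalised counts in CTRL, 2309, 2261 and 2323 at 24H and 2405, 2380 and 2405 at 48H, so that both treated groups overlapped CTRL, with a log2 fold change of -0.00 at 48H.

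Of the lysosomal membrane proteins LAMP1 fell and LAMP2 did not pass. LAMP1 had normalised counts of 12081, 12722 and 11547 in CTRL, 10916, 11090 and 11524 at 24H and 10341, 10621 and 10570 at 48H. The 48H values lay below all others, while the highest at 24H, 11524, was only just below the lowest CTRL value, 11547. The share of all genes with groups in this order was not computed. The log2 fold change was -0.12 (SE 0.04) at 24H (adjusted p = 0.595) and -0.21 (SE 0.04) at 48H (adjusted p = 0.0106), both by edgeR's quasi-likelihood test. Without the CTRL library of replicate 2 the 48H value had an adjusted p of 0.0556. LAMP2, needed for fusion with autophagosomes, and SCARB2, the receptor that carries glucocerebrosidase, were at 0.09 and 0.07, and MCOLN1 at -0.14. TFEB had 240.4, 250.9 and 229.7 in CTRL, 192.7, 218.6 and 254.2 at 24H and 214.2, 198.2 and 216.3 at 48H. The 24H libraries spread over the range of both other groups, and the log2 fold change at 48H of -0.20 (SE 0.11) did not pass (adjusted p = 0.277, edgeR's quasi-likelihood test).

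The glycan hydrolases and the lipid group held no gene that passed at 48H. The 9 glycan hydrolases ranged from -0.07 (GLA, α-galactosidase) to 0.23 (MANBA), with a median log2 fold change of -0.02. The glycogen hydrolase GAA, GLB1, ARSA, MAN2B1 and NEU1 were between -0.05 and -0.02. GLB1, the highest of them in level, had 2436, 2462 and 2141 normalised counts in CTRL, 2304, 2249 and 2391 at 24H and 2258, 2247 and 2271 at 48H, with overlapping groups. The 6 genes of lipid hydrolysis and cholesterol export had a median of 0.00, from -0.04 (PSAP) to 0.12 (NPC1, the membrane partner of NPC2 in cholesterol export). PSAP had 32196, 32728 and 29716 in CTRL, 32365, 31710 and 32329 at 24H and 31526, 30260 and 30404 at 48H, so that each treated group overlapped CTRL. LIPA, ASAH1, SMPD1 and NPC2 were at 0.07, -0.00, 0.00 and -0.02.

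The direct comparison of 48H with 24H used the 6 treated libraries, which also enter the comparisons with CTRL. Without controls of matching time, longer exposure and longer time in culture cannot be told apart. It called 2 of the 35 higher (5.71%) and 3 lower (8.57%), where 3.77% of all genes passed in each direction, and 0 of the 35 with the 1.4-fold minimum, against 1.71% of all genes. ARSB and PPT1 were higher and CTSB, CTSD and HYAL2 lower. The log2 differences were 0.29 (SE 0.06) for ARSB, 0.18 (SE 0.04) for PPT1, -0.20 (SE 0.04) for CTSD and -0.23 (SE 0.05) for HYAL2. Their adjusted p-values were 0.0114, 0.0129, 0.0107 and 0.0106 by edgeR's quasi-likelihood test. Without the 48H library of replicate 2 none of these 4 passed, and CTSB alone did. CTSD, HYAL2 and PPT1 were also lost without the 24H library of replicate 3, and ARSB and PPT1 without that of replicate 2, with adjusted p-values of up to 0.0669 for CTSD, 0.0632 for HYAL2, 0.064 for PPT1 and 0.0616 for ARSB. LAMP1, CTSZ and CTSC did not pass between the time-points, at -0.09, -0.07 and -0.09. IDUA was 0.15 higher at 48H than at 24H on the log2 scale, with overlapping groups.

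GC content moved with the groups. Against the 9-library mean, each library's log2 level changed with the GC content of the gene by 0.014 to 0.052 per 10 percentage points in CTRL, -0.013 to 0.027 at 24H and -0.051 to -0.021 at 48H. The 36 lysosomal genes had a median GC content of 54.8% against 50.3% over the tested genes with a value, which were 89.8% of the total. The part of this trend in the falls at 48H was not tested beyond the fits that follow. With this trend removed from each library, CTSB, CTSC, HYAL2, LAMP1 and PPT1 passed at 48H and CTSD (log2 fold change -0.11, adjusted p = 0.102, edgeR's quasi-likelihood test) and CTSZ (-0.12, adjusted p = 0.0775) did not. In this fit 3.81% of all genes passed as higher and 4.81% as lower. Where the GC content of the principal isoform was used in place of the median over coding transcripts, HYAL2 also missed the threshold, at -0.17 with adjusted p = 0.0519 by the same test. The IDUA log2 fold change at 48H was -0.34 with the first measure and -0.32 with the second. The median of the 35 was 0.01 and 0.00, against -0.0088 and -0.0073 over all genes in these fits.

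**Figure D4:**
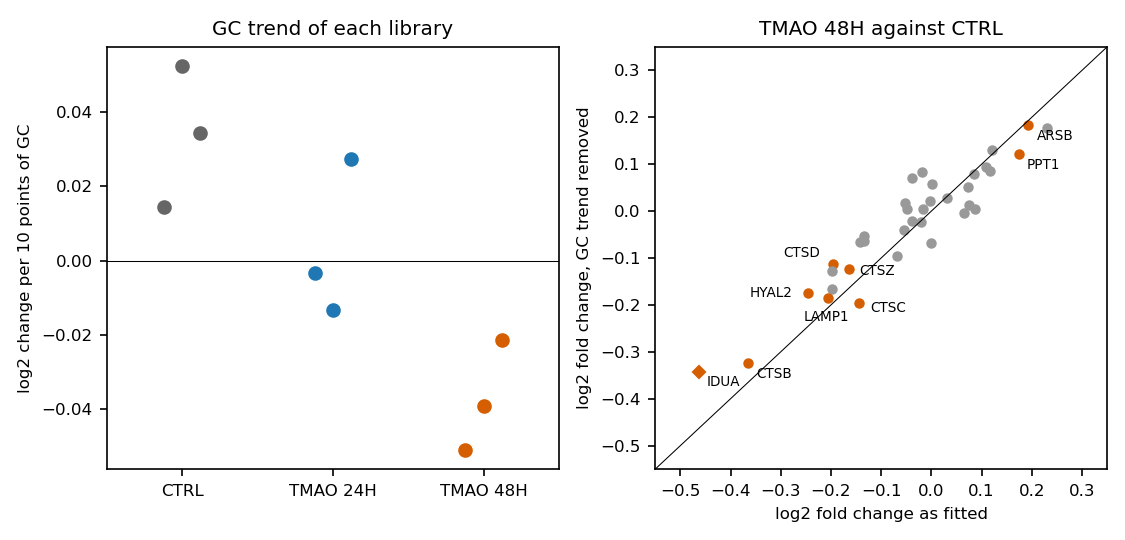
Left, change in log2 level per 10 percentage points of GC content (vertical axis) for each library by group. Right, log2 fold changes at 48H as fitted (horizontal) and with the GC trend removed by the median over coding transcripts (vertical), with the diagonal of equal values, IDUA as a diamond and the genes discussed in orange. The 48H libraries have the lowest trends, and CTSB remains at -0.32 after its removal.

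A further 126 lysosomal genes, in 7 lists, set these values beside the rest of the pathway. Fits without 1 library or without the GC trend were not examined for these genes, so their calls are less checked than those above. At 24H 0 of the 126 passed. At 48H 10 rose (7.94%, against 5.14% of all genes) and 5 fell (3.97%, against 5.29%), and 4 of the rises reached 1.4-fold (3.17%, against 1.8%). The median log2 fold change of the 126 was 0.02. The 4 were LAMP3, an interferon-inducible lysosomal membrane protein, at 0.69 (SE 0.11), LITAF at 0.61 (SE 0.11), the cysteine protease CTSO at 0.57 (SE 0.15), and CTSS, a cathepsin that trims the invariant chain of MHC class II, at 0.50 (SE 0.10). Their adjusted p-values were 0.00235, 0.00495, 0.0277 and 0.00783 by edgeR's quasi-likelihood test. LAMP3 had 301.8, 277.8 and 232.7 normalised counts in CTRL, 226.3, 276.7 and 291.8 at 24H and 414.4, 463.2 and 437.3 at 48H, and CTSS had 205.4, 207.1 and 239.8, 280.1, 234.9 and 241.7 and 309.6, 317.9 and 293.4. CTSS and CTSO were higher at 48H while CTSB, CTSC, CTSD and CTSZ were lower. The other cathepsins in the list of CTSS and CTSO did not pass. CTSK was at -0.37 (adjusted p = 0.157, edgeR's quasi-likelihood test), and CTSL, CTSF and CTSV were at 0.08, 0.04 and 0.01.

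Among the genes that passed at 48H, the one of each list with the lowest adjusted p in each direction is given here by edgeR's quasi-likelihood test, and OSTM1, WIPI1 and ZKSCAN3 were added after their values were seen. In the proton pump, TCIRG1 fell by 0.37 (adjusted p = 0.00258) and ATP6V1A rose by 0.15 (adjusted p = 0.0245), both subunits of the V-ATPase that acidifies the organelle. Among mannose 6-phosphate tagging and sorting genes the sorting receptor SORT1 rose by 0.27 (adjusted p = 0.00137) and NAGPA, which uncovers the tag, fell by 0.30 (adjusted p = 0.0258). Of the membrane proteins CLCN7, a chloride-proton exchanger, fell by 0.14 (adjusted p = 0.043), and OSTM1, its partner subunit, rose by 0.28. The autophagy kinase ULK1 fell by 0.26 (adjusted p = 0.00959), as did WIPI1 by 0.25. CTBS, a chitobiase, rose by 0.34 (adjusted p = 0.0322), as did FNIP2 by 0.15 (adjusted p = 0.0439) and ZKSCAN3 by 0.31 in the list of TFEB family and nutrient sensing genes. Between 48H and 24H 6 of the 126 were higher (4.76%, against 3.77% of all genes) and 3 lower (2.38%, against 3.77%). SORT1 had the lowest adjusted p of the rises, with a log2 difference of 0.33, and LAMP3 the largest, 0.73. The 3 lower were TCIRG1, ULK1 and ATG7 at -0.28, -0.21 and -0.22. LAMP3 and LITAF also passed the 1.4-fold minimum, and OSTM1, ATP6V1A and UVRAG were the other rises.

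**Figure D5:**
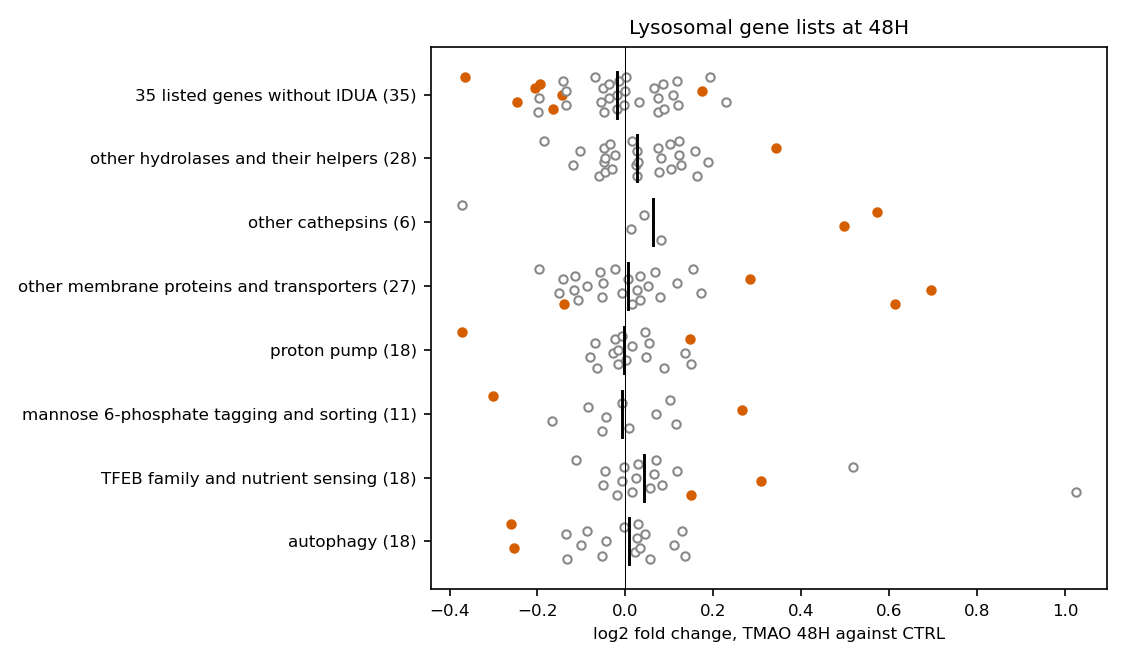
Log2 fold change at 48H against CTRL (horizontal axis) of the 35 genes other than IDUA and of 7 lists of other lysosomal genes, with the number of genes in brackets. Filled points passed at an adjusted p under 0.05 and vertical bars are list medians, which lie between -0.02 and 0.06.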

How the data were processed

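Processed values were used as deposited: 1 table of estimated counts per gene for 9 RNA-seq libraries of HMEC-1. Per the labels, total RNA was made into libraries with a VAHTS Universal V8 kit. The authors ran an nf-core RNA-seq pipeline, and the submitters' processing notes name Trim Galore. The quantifier, genome build, annotation and strand setting are not given in the sources used here. The deposited estimated counts, which are not whole, were rounded to whole numbers.

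Counts were fitted with edgeR 4.0.16 (R 4.3.3) by the quasi-likelihood method over all 9 libraries, after filterByExpr and TMM scaling, with group as the 1 factor. P-values were adjusted by the Benjamini-Hochberg method over 14740 genes. A gene passed at an adjusted p under 0.05, and was called at 1.4-fold as a second rule, which follows the study. Standard errors are the log2 fold change divided by the square root of its F statistic. Normalised counts are TMM-scaled counts. Transcript lengths, GC content and exon overlaps came from GENCODE 29 and promoters from RefSeq, neither known to be the authors' annotation. GC trends were removed as offsets from a loess curve per library.

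All 36 genes are accounted for. Full values are given for those that passed, for IDUA, TFEB and LAMP1, and for the highest of each role. In the other lists every gene called at 1.4-fold and, among those that passed, the gene with the lowest adjusted p in each direction are named. The genes, lists and tests were chosen with earlier results of these data known. Alternatives were DESeq2 1.42.0, RLE scaling, other filters on low counts, the 2 groups alone, ribosomal RNA genes left out, a block for the replicate number, edgeR's earlier form of the fit, the GC trend removed, and each library left out. The GC content of the principal isoform was added after the results with the median over coding transcripts had been seen, and the principal-isoform length replaced the median length for levels after the same point. Depth of 25205756 to 36927373 counts per library sets the precision, and the common biological coefficient of variation was 0.0744.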

Additional observations from a re-analysis of the deposited data

Results flagged for a closer look

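For 5 genes the levels at 24H and 48H differed by a direct test (48H against 24H, edgeR's quasi-likelihood test with Benjamini-Hochberg adjustment). Longer exposure and longer time in culture cannot be told apart here. CTSB was 0.08 at 24H and -0.36 at 48H against CTRL, a log2 difference of -0.44 (adjusted p = 5.68e-05). HYAL2 was -0.01 and -0.25, a difference of -0.23 (adjusted p = 0.0106). CTSD was 0.00 and -0.20, a difference of -0.20 (adjusted p = 0.0107). PPT1 was -0.00 and 0.17, a difference of 0.18 (adjusted p = 0.0129). ARSB was -0.10 and 0.19, a difference of 0.29 (adjusted p = 0.0114). In each of the 5 the 3 libraries at 48H lay on 1 side of the 3 at 24H. The same libraries chose these genes, so this separation adds no support. Of all genes 3.77% passed as higher and 3.77% as lower in this comparison.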

How the results depend on the processing

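At 48H, genes of the 35 that passed as lower numbered 6, and 0 with the 1.4-fold minimum, 3 with the GC trend of the principal isoform removed (added after the data were seen; 4.76% of all genes were then lower), and 2 to 7 when 1 library was left out. The 2 came without CTRL replicate 2 (2.83% of all genes lower) and 3 without the 48H library of replicate 2 (2.61%). Genes higher at 48H numbered 1, and 2 with the older quasi-likelihood fit (4.93% of all genes), 0 at 1.4-fold, and 0 to 1 with 1 library left out. Between 48H and 24H the 2 higher became 0 at 1.4-fold and 0 to 3 with 1 library left out, and the 3 lower became 0 and 1 to 4. The low ends came without the 24H libraries of replicate 2 or 3 or the 48H library of replicate 2, where 1.81% to 2.5% of all genes passed in each direction. At 24H the count was 0 in every setting run. CTSB passed in all 10 alternatives and all 9 fits without 1 library, in both comparisons with 48H. HYAL2 passed at 48H in 9 of 10 and all 9. CTSZ was lost with the 2 groups alone, and CTSC with the 2 groups alone and with no filter; the cause was not tested. With the replicate number as a replicate block 1 gene was higher and 4 were lower at 48H (2.93% and 3.50% of all genes), CTSC (adjusted p = 0.0852) and CTSZ (adjusted p = 0.0679) being lost. In the block fit 48H against 24H kept 2 and 3, and 24H kept 0. Same-numbered libraries deviated together no more than others (r across genes -0.12 to 0.091 over 9 pairs, against -0.10 to 0.16 over 18 others). The labels do not say whether they were paired, and so few libraries cannot exclude it. IDUA at 24H ranged from -0.72 to -0.54 with 1 library left out. No called direction reversed.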
